A study of Homo sapiens with 4 samples.

Results

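The collagen chain genes are the protein-coding genes whose GENCODE symbol reads COL, digits, A, digits. The rule found 44 such genes among the 58884 genes of the deposited tables. They were followed in RNA sequencing libraries of HCT116, a human colorectal carcinoma cell line of epithelial origin. The first group holds 2 libraries of cells in which RALY, an hnRNP that binds RNA, was knocked down with a lentiviral short hairpin RNA. The second group holds 2 control libraries. Per the labels' protocols, lentivirus with the RALY hairpin or a nonsilencing one was left on the cells with polyprene (as the label spells it) for 72 h, while the source names call the controls untreated and their titles call them WT. Source names number the cell line differently for replicate 2 of each group, although the cell line entry is the same for all libraries. The sources used here do not settle whether the controls carried the nonsilencing hairpin, how many hairpins were used, or whether the replicates were grown separately. P-values therefore cover no more than the variation among these 4 libraries, which may be technical.

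Collagens are secreted or membrane-bound proteins built from chains with long runs of the repeat Gly-X-Y, in which glycine recurs at a fixed spacing. Chains wind around each other into a trimeric helix, and a trimer often needs chains from different genes. Fibrillar collagens such as type I align into the cross-banded fibrils of tendon, bone and stroma. Type IV collagens form the sheet-like network of basement membranes, on which colonic epithelium rests. Beaded filaments of type VI, anchoring fibrils of type VII, fibril-associated collagens (FACITs), transmembrane collagens and multiplexins make up most of the other types. Stromal fibroblasts are the main source of fibrillar collagen in the colon, and carcinoma cells can also express collagen genes.

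The exons of the fibrillar genes carry the repeat in a recurrent unit of 54 bases. In the canonical transcripts of GENCODE release 44, 305 of 649 coding exons of the 11 fibrillar genes were 54 bases long, or 47.0%. The share was 12 of 296, or 4.05%, in the 6 type IV genes and 118 of 461, or 25.6%, in the 10 FACIT genes. Single FACIT genes ran from 6.15% in COL12A1 to 43.75% in COL9A2, COL9A3 and COL22A1, beside 41.2% in COL1A1. The unit is thus not limited to fibrillar genes. Of 471 exons of 54 bases in all members that began on a whole codon, 458 had a glycine codon at every repeat. One such exon is printed here for each fibrillar gene that rose after knockdown and for COL1A1, the most abundant fibrillar gene, with its glycine codons in capitals and read 5′ to 3′ along the transcript.
COL24A1 exon 4, chr1:86115325-86115378, minus strand, GRCh38: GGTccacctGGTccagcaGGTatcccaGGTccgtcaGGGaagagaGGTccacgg
COL2A1 exon 6, chr12:47997871-47997924, minus strand, GRCh38: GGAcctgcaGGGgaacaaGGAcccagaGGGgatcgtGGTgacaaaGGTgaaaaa
COL1A1 exon 8, chr17:50197949-50198002, minus strand, GRCh38: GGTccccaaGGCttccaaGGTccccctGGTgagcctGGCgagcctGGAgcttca
Each of these exons holds 6 glycine codons, and COL24A1 has 33 exons of this length among its 60.

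The type IV genes lie in head-to-head pairs, each pair reading away from a shared stretch of DNA. In RefSeq (GRCh38.p14), 126 bases separate the start sites of COL4A1 and COL4A2, 418 those of COL4A4 and COL4A3, and 379 those of COL4A6 and COL4A5. COL4A6 has another start site there, at chrX:108438422, farther from COL4A5, and the nearer one was used. The bases between the start sites, or the 250 bases before the start of the gene named last, are printed because the members of these pairs are compared below. Capitals mark CCAAT and GGGCGG on either strand, so ATTGG and CCGCCC are marked too, and all lines read along the plus strand.
COL4A1 and COL4A2, chr13:110307158-110307283: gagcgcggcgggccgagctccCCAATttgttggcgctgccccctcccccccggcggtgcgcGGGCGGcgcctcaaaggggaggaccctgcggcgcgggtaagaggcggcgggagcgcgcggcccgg
COL4A4 and COL4A3, chr2:227164374-227164623: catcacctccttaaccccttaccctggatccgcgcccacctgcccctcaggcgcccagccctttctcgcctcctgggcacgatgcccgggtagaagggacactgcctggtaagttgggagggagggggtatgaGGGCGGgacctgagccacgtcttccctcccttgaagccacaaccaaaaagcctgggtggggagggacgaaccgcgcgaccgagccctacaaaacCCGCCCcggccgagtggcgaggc
COL4A6 and COL4A5, chrX:108439588-108439837: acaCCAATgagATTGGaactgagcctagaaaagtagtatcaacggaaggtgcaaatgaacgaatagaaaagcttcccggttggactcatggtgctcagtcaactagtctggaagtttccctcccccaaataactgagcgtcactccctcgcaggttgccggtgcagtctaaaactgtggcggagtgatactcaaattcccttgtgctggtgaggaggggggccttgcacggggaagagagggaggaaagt
G and C made up 80.2% of the bases shown for COL4A1 and COL4A2, 66.4% for COL4A4 and COL4A3, and 51.2% for COL4A6 and COL4A5. Among 35116 RefSeq start-site windows of 300 bases, 34.6% held CCAAT and 44.95% held GGGCGG on either strand. In the 44 windows of the 32 collagen genes in that table, the shares were 31.8% and 54.5%. A match is a description of the sequence only.

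RALY itself had 634 and 522 counts in the knockdown libraries, against 1903 and 2132 counts in the controls. Its fitted level after knockdown was 27.9% of the control level (log2 fold change -1.84, SE 0.127, edgeR quasi-likelihood adjusted p = 6.59e-06). Library totals ran from 13360007 to 16847520 counts. The epithelial genes KRT8 and EPCAM were abundant in all libraries. Of the colonic markers, CDX2 had 434 and 385 counts in the knockdown libraries and 498 and 616 in the controls. CDX1, KRT20 and VIL1 had at most 16 counts in any library. VIL1 shares 44% of its exon bases with USP37, so its counts are uncertain. Levels in CPM (counts scaled to 1e6 per library) use TMM-scaled totals, and RPKM is CPM per kilobase of exon. Log2 fold changes are knockdown over control, and the threshold for a call was an adjusted p of 0.05 in edgeR's quasi-likelihood fit over all 19686 genes tested.

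After RALY knockdown, 9 collagen genes rose and 2 fell, or 31.0% and 6.90% of the 29 tested. The shares over all tested genes were 12.5% and 13.1%. With either control left out, fewer collagen genes were called in each direction, and far fewer genes over the whole table. Without knockdown replicate 1 more were called in each direction, as over all genes. Without knockdown replicate 2 fewer collagen genes were called higher and more lower, while over all genes more were called in each direction. COL24A1 rose most, 4.57-fold, and COL4A2 rose 4.0-fold, followed by COL4A1, COL16A1 and COL2A1, while COL4A6, COL7A1, COL12A1 and COL6A3 rose less than 2-fold. Of these, COL4A1 and COL4A2 passed the filter on low counts only through their knockdown libraries. COL13A1, a transmembrane collagen, and COL4A3, a chain of basement membrane type IV collagen, fell. The abundant chains COL6A1, COL6A2, COL18A1 and COL4A5 were not called, nor was COL1A1. The total collagen level was 1402 and 1472 CPM in the knockdown libraries and 1250 and 1338 CPM in the controls.

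Of the 44 members, 29 passed the filter on low counts and were tested. The 9 that rose are 31.0% of those tested, where 12.5% of all tested genes rose, and the 2 that fell are 6.90%, where 13.1% of all tested genes fell. In either direction, 25.6% of all tested genes were called. The median log2 fold change of the tested members was -0.01, against 0.01 over all genes tested. The groups did not overlap in 16 of the 29 members, or 55.2%, where 63.6% of all tested genes did not overlap. COL4A1 and COL4A2 entered the test through their knockdown libraries, since fewer than 2 control libraries reached the filter, so the counts of called members are a description only. DESeq2's Wald test called 7 members higher and 2 lower, against 9.84% higher and 11.3% lower over all genes it gave an adjusted p.

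**Figure D1:**
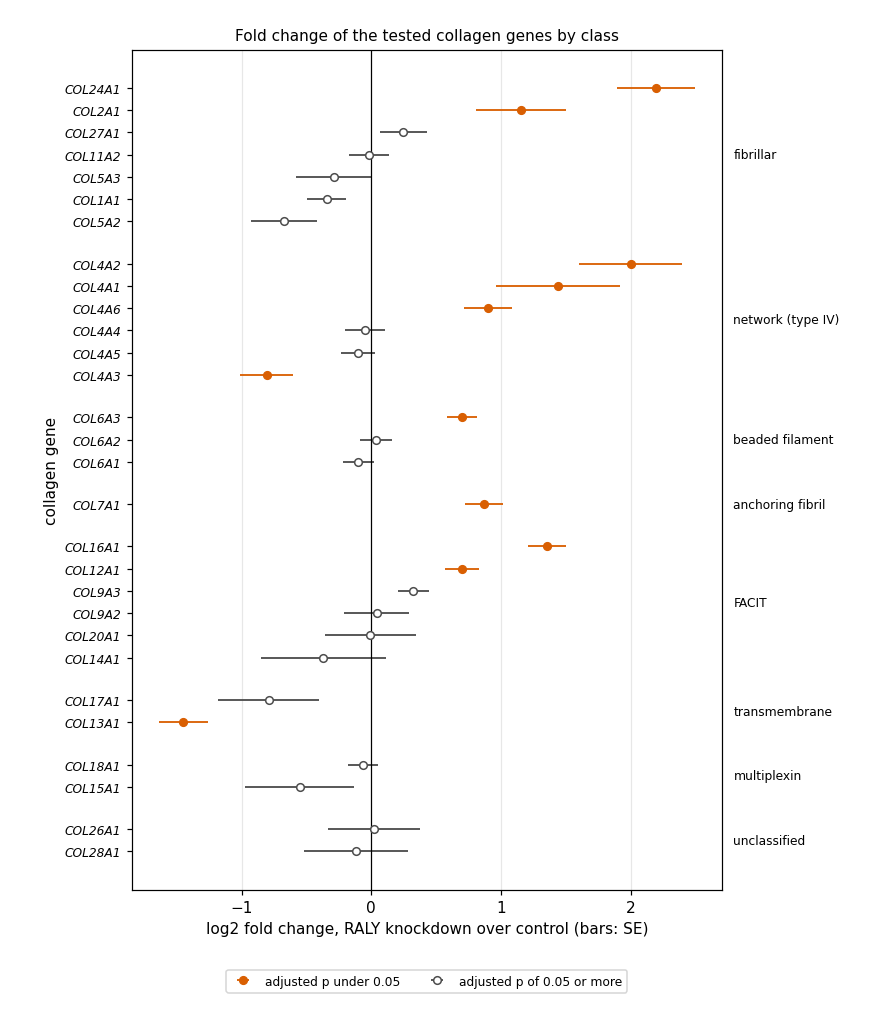
Log2 fold change (RALY knockdown over control, horizontal axis) of the 29 tested collagen genes, grouped by class, with bars of 1 SE; filled points have an edgeR adjusted p under 0.05. The 11 filled points are spread over 6 of the classes, with COL24A1 farthest right at 2.19 and COL13A1 farthest left at -1.45.

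By type, 2 of 7 tested fibrillar genes rose and none was called lower, 3 of 6 tested network genes rose and 1 fell, and 4 of 16 tested genes of the other types rose and 1 fell. Median log2 fold changes were -0.02 for the fibrillar, 0.43 for the network and 0.01 for the other types. The network count and median include COL4A1 and COL4A2, and the median of the other 4 tested network genes was -0.075. With all 6 genes, the network median ran from 0.22 without control replicate 1 to 0.63 without control replicate 2. The genes that rose were 28.6% of the fibrillar, 50% of the network and 25% of the other types, beside 12.5% of all tested genes. Those that fell were 16.7% of the network and 6.25% of the other types, beside 13.1%. Called genes lay in each of the types, where 25.6% of all tested genes were called. These shares rest on few genes, and no test between types was made.

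COL24A1, a fibrillar collagen of developing bone, had 102 and 94 counts in the knockdown libraries, against 19 and 23 in the controls. Its level was 6.34 ± 0.0302 CPM after knockdown and 1.39 ± 0.0775 CPM in the controls (SD, n = 2 each). The rise was 4.57-fold (log2 fold change 2.19, SE 0.301, edgeR adjusted p = 0.000412). Knockdown libraries lay well above both controls, and the call was kept with each library left out.

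COL2A1, the fibrillar collagen of cartilage, had 45 and 41 counts in the knockdown libraries and 16 and 22 counts in the controls. It rose 2.23-fold (log2 fold change 1.16, SE 0.345, edgeR adjusted p = 0.0277), and the groups did not overlap. It was no longer called when either control replicate 1 or control replicate 2 was left out (edgeR adjusted p = 0.211 and 0.185) and in DESeq2 (adjusted p = 0.182).

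COL1A1, which encodes the major chain of type I collagen, was the most abundant fibrillar gene. It had 1292 and 1643 counts in the knockdown libraries and 1470 and 2263 counts in the controls. On the scaled level both knockdown libraries, at 80.6 and 110 CPM, lay below the controls at 111 and 131 CPM, though by a narrow margin. The difference was not called (log2 fold change -0.34, SE 0.148, edgeR adjusted p = 0.107), but it was called without knockdown replicate 2 (log2 fold change -0.59, adjusted p = 0.000256) and with no filter on low counts (adjusted p = 0.0205). COL1A2, the partner chain of the usual type I trimer, had 0 and 2 counts in the knockdown libraries and 1 and 4 in the controls. The type I genes were thus measured almost wholly through COL1A1.

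COL5A2, a chain of type V collagen, which regulates fibril diameter, had 183 and 126 counts in the knockdown libraries and 164 and 332 counts in the controls. Its log2 fold change of -0.67 (SE 0.251, edgeR adjusted p = 0.0671) was not called, and was called without knockdown replicate 1 (-0.93, adjusted p = 0.00118) and with no low-count filter (adjusted p = 0.0138). COL5A1, the other main type V chain, had 10 and 17 counts in the knockdown libraries and 2 and 3 in the controls. It did not pass the low-count filter, and was the single untested member called when no filter was used (log2 fold change 2.34, edgeR adjusted p = 0.00932).

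COL5A3 had 53 and 62 counts after knockdown and 52 and 89 in the controls (log2 fold change -0.29, edgeR adjusted p = 0.504). COL27A1, a fibrillar collagen of cartilage, had 866 and 1059 counts after knockdown and 555 and 1090 in the controls (log2 fold change 0.25, edgeR adjusted p = 0.354). It was called higher only without knockdown replicate 1 among the settings tried (log2 fold change 0.41, adjusted p = 0.0183). COL11A2, a fibrillar chain of cartilage, had 535 and 433 counts after knockdown and 394 and 577 in the controls (log2 fold change -0.02, SE 0.151, edgeR adjusted p = 0.948). In these 3 genes the groups overlapped.

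The summed level of the fibrillar genes was 193 and 234 CPM in the knockdown libraries and 203 and 255 CPM in the controls, so the groups overlapped. The ratio of the means was 0.934, and 1.10 without COL1A1. Summed levels of 2 libraries against 2 cannot reach a two-sided exact permutation p below 0.333, and none was tested.

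**Figure D2:**
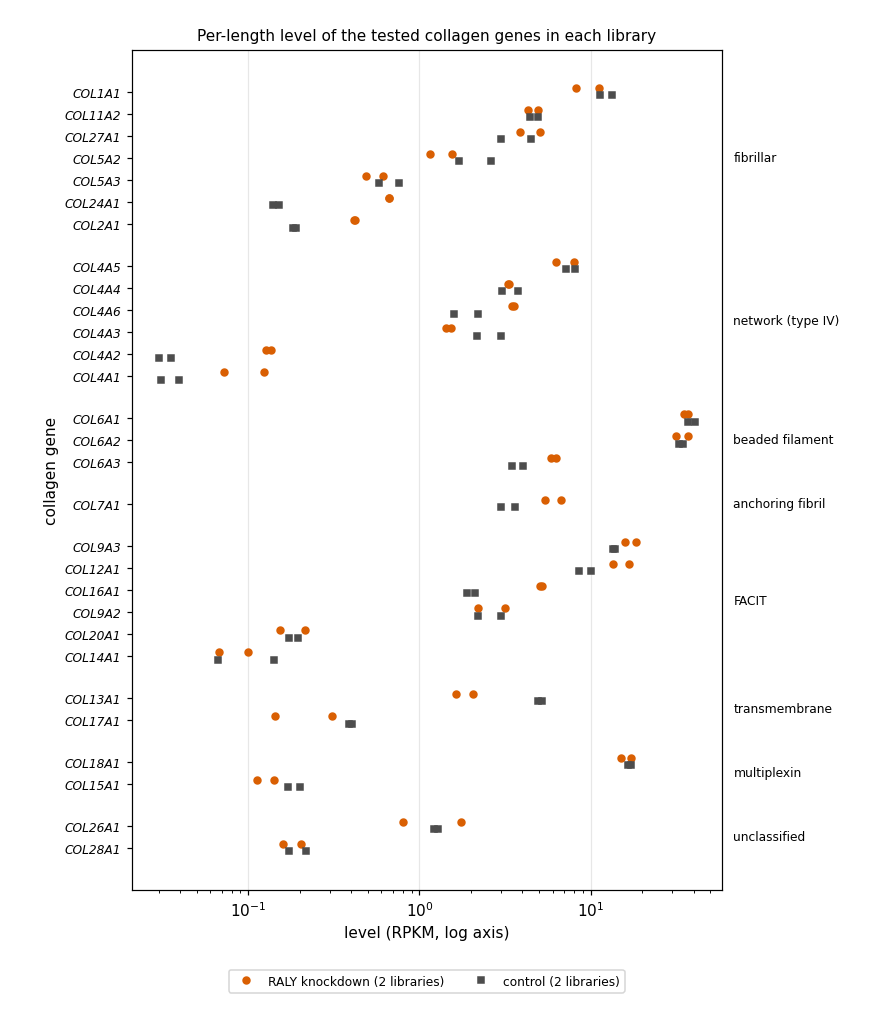
Level (RPKM, logarithmic horizontal axis) of each tested collagen gene in the 2 RALY knockdown libraries (circles) and the 2 control libraries (squares), by class. Levels span from about 0.03 RPKM for COL4A2 in the controls to about 40.7 RPKM for COL6A1, and the circles lie apart from the squares for COL24A1, COL2A1, COL4A2, COL16A1 and COL13A1.

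Among the type IV genes, COL4A1, COL4A2 and COL4A6 rose, COL4A3 fell, and COL4A4 and COL4A5 were not called. COL4A1 and COL4A2, chains of the type IV trimer found in nearly all basement membranes, were close to the floor in these cells. COL4A2 had 39 and 39 counts in the knockdown libraries, against 9 and 10 in the controls. Like COL4A1, it entered the test through its knockdown libraries, so its adjusted p and the gap between its groups are a description only. COL4A2 rose 4.0-fold (log2 fold change 2.0, SE 0.396, edgeR adjusted p = 0.00351). Leaving out control replicate 1 or control replicate 2 ended the call (edgeR adjusted p = 0.0712 and 0.0964), with log2 fold changes of 2.08 and 1.86.

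COL4A1 had 17 and 27 counts in the knockdown libraries and 6 and 10 counts in the controls. Its rise was 2.71-fold (log2 fold change 1.44, SE 0.479, edgeR adjusted p = 0.0437). The call was lost in DESeq2 (adjusted p = 0.267), with plain totals (adjusted p = 0.0595), without knockdown replicate 2 (log2 fold change 1.0, adjusted p = 0.269) and with control replicate 1 or control replicate 2 left out (adjusted p = 0.303 and 0.237). The value was positive in each of these settings. As COL4A1 entered the test through its knockdown libraries, its sign and adjusted p are a description only.

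COL4A3 and COL4A4 encode chains of the type IV trimer of kidney and lung basement membranes, which also takes the COL4A5 chain. COL4A3 had 209 and 207 counts in the knockdown libraries, against 262 and 470 in the controls. Its level was 13.5 ± 0.622 CPM after knockdown and 23.5 ± 5.18 CPM in the controls (SD, n = 2 each), with the controls uneven and both above the knockdown. It fell (log2 fold change -0.81, SE 0.202, edgeR adjusted p = 0.0122), and was not called with control replicate 1 or control replicate 2 left out (log2 fold change -1.05 and -0.57, edgeR adjusted p = 0.0512 and 0.218). COL4A4 had 530 and 499 counts after knockdown and 404 and 659 in the controls, with overlapping groups (log2 fold change -0.05, SE 0.152, edgeR adjusted p = 0.856). COL4A3 was thus called lower while its head-to-head partner was not called.

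COL4A5 was the most abundant type IV gene, with 1522 and 1113 counts in the knockdown libraries and 1133 and 1666 counts in the controls (log2 fold change -0.10, SE 0.132, edgeR adjusted p = 0.618). COL4A6, whose chain joins that of COL4A5 in some epithelial and smooth muscle basement membranes, had 532 and 482 counts after knockdown and 194 and 351 counts in the controls. Its level was 32.8 ± 0.551 CPM after knockdown and 17.5 ± 3.96 CPM in the controls (SD, n = 2 each), and the groups did not overlap. It rose 1.87-fold (log2 fold change 0.90, SE 0.183, edgeR adjusted p = 0.00401), a call that did not survive leaving out control replicate 1 (log2 fold change 0.65, edgeR adjusted p = 0.119).

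**Figure D3:**
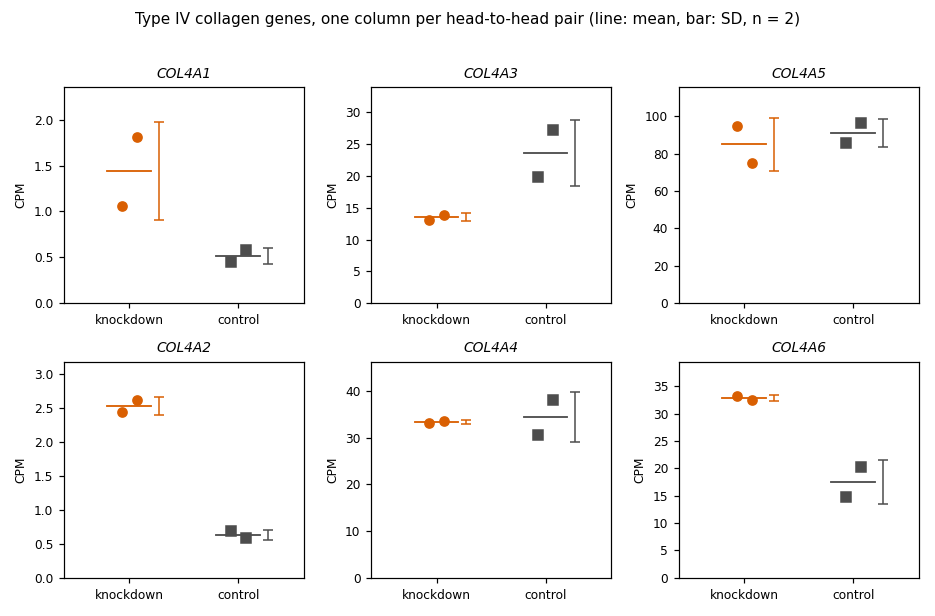
CPM of the 6 type IV collagen genes in the 2 RALY knockdown libraries (left in each panel) and the 2 control libraries (right), each column of panels holding a head-to-head pair; lines are means and bars SD. COL4A1 and COL4A2 are higher after knockdown, COL4A3 is lower and COL4A6 higher, while COL4A4 and COL4A5 overlap between groups.

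The ratio of per-length levels compares the RNA of partner chains in each library, not their proteins, and its size depends on the exon length used. The ratio of COL4A3 to COL4A4 was 0.435 and 0.458 in the knockdown libraries, against 0.716 and 0.788 in the controls. That of COL4A5 to COL4A6 was 2.24 and 1.81 after knockdown, against 4.57 and 3.71 in the controls. Both ratios were lower in each knockdown library than in each control. For COL4A1 over COL4A2 the groups overlapped, with ratios of 0.574 and 0.911 after knockdown and 0.877 and 1.32 in the controls, on few counts. The summed level of all network genes was 178 and 159 CPM in the knockdown libraries and 153 and 183 CPM in the controls, and the ratio of the means was 1.0.

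The other network genes, which encode the short-chain types VIII and X, were nearly silent. COL8A1 and COL8A2 had at most 6 counts in any library, and COL10A1, a marker of hypertrophic cartilage, had none. A count of 0 allows a level of up to 0.174 to 0.227 CPM, depending on the library, counting error only; that limit is 3 counts.

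COL6A1 and COL6A2, which encode chains of type VI collagen, held the highest per-length levels among the collagens. COL6A1 had 3013 and 2955 counts in the knockdown libraries and 2868 and 3415 counts in the controls, and COL6A2 had 2725 and 2958 after knockdown and 2441 and 3023 in the controls. On the per-length scale they averaged 37.5 and 34.1 RPKM over all libraries, and their ranges overlapped. With the canonical transcript length COL6A2 ranked above COL6A1. Neither was called (log2 fold changes -0.10 and 0.04, SE 0.119 and 0.122, edgeR adjusted p = 0.577 and 0.868). COL6A1 and COL6A2 lie on chromosome 21, separated by 93046 bases in the deposited annotation.

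COL6A3 encodes the large chain that completes the type VI monomer. It had 1990 and 1721 counts in the knockdown libraries, against 900 and 1375 in the controls. Its level was 120 ± 5.96 CPM after knockdown and 73.9 ± 8.01 CPM in the controls (SD, n = 2 each). It rose 1.62-fold (log2 fold change 0.70, SE 0.118, edgeR adjusted p = 0.00137), a call that did not survive leaving out control replicate 1 (log2 fold change 0.56, edgeR adjusted p = 0.0616). The ratio of COL6A3 to COL6A1 was 0.180 and 0.158 in the knockdown libraries and 0.0854 and 0.110 in the controls, while that of COL6A1 to COL6A2 was 1.11 and 1.0 after knockdown and 1.18 and 1.13 in the controls. Each of these ratios separated the groups. With canonical transcript lengths the ratio of COL6A1 to COL6A2 was 0.906 and 0.819 after knockdown and 0.963 and 0.926 in the controls. COL6A5 and COL6A6, alternatives to COL6A3 in other tissues, had at most 2 counts in any library.

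**Figure D4:**
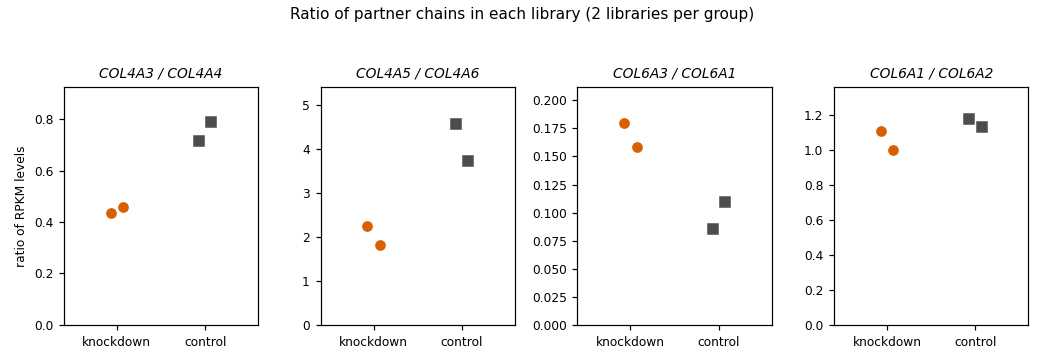
Ratio of per-length levels (RPKM over RPKM) for 4 pairs of partner chains in the 2 RALY knockdown libraries (left) and the 2 control libraries (right). COL4A3 over COL4A4 and COL4A5 over COL4A6 are lower after knockdown, COL6A3 over COL6A1 is higher, and COL6A1 over COL6A2 differs least.

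COL7A1, the chain of the anchoring fibrils that tie epidermis and other epithelia to the stroma, had 963 and 1100 counts in the knockdown libraries and 438 and 689 counts in the controls. Its level was 67.0 ± 9.82 CPM after knockdown and 36.5 ± 4.71 CPM in the controls (SD, n = 2 each). The rise was 1.83-fold (log2 fold change 0.87, SE 0.146, edgeR adjusted p = 0.00134), a call that did not survive leaving out control replicate 1 (log2 fold change 0.71, edgeR adjusted p = 0.0722).

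Among the FACITs, which bind to the surface of fibrils, 2 of 6 tested genes rose and none was called lower. Over all tested genes 12.5% rose and 13.1% fell. COL16A1, expressed in many tissues, had 751 and 716 counts in the knockdown libraries, against 232 and 338 in the controls. Its level was 47.5 ± 0.914 CPM after knockdown and 18.6 ± 1.39 CPM in the controls (SD, n = 2 each), a 2.55-fold rise (log2 fold change 1.35, SE 0.147, edgeR adjusted p = 9.26e-05). Knockdown libraries lay far above the controls, and the call was kept with each library left out.

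COL12A1, a FACIT of dense connective tissue, had 3343 and 2518 counts in the knockdown libraries and 1417 and 2164 counts in the controls. It rose 1.62-fold (log2 fold change 0.70, SE 0.133, edgeR adjusted p = 0.00288), a call that did not survive leaving out control replicate 1 (log2 fold change 0.56, edgeR adjusted p = 0.0902). COL9A3, a type IX chain of cartilage, had 1232 and 1326 counts after knockdown and 889 and 1130 counts in the controls. Its groups did not overlap, and it was not called (log2 fold change 0.32, SE 0.119, edgeR adjusted p = 0.0640), but it was called without knockdown replicate 1 (adjusted p = 0.0120).

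COL9A2, a partner chain of COL9A3, had 148 and 199 counts after knockdown and 123 and 217 in the controls (log2 fold change 0.04, edgeR adjusted p = 0.929). COL20A1 and COL14A1 had between 9 and 37 counts in each library, with log2 fold changes of -0.01 and -0.37 (edgeR adjusted p = 0.990 and 0.624). The groups overlapped in these 3 genes. The summed level of the FACITs was 344 and 324 CPM in the knockdown libraries and 205 and 227 CPM in the controls, a ratio of means of 1.55. Per length, COL9A3 and COL12A1 had the highest levels among them.

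Of the transmembrane collagens, COL13A1, a collagen of cell adhesion sites and of the neuromuscular junction, had 155 and 181 counts in the knockdown libraries, against 382 and 530 in the controls. Its level was 10.9 ± 1.77 CPM after knockdown and 29.8 ± 1.21 CPM in the controls (SD, n = 2 each). It was 2.73-fold lower (log2 fold change -1.45, SE 0.188, edgeR adjusted p = 0.000298), and the call was kept with each library left out. COL17A1, a hemidesmosome protein of basal epithelial cells, had 35 and 15 counts after knockdown and 36 and 49 counts in the controls. Its scaled levels did not overlap, and it was not called (log2 fold change -0.79, SE 0.390, edgeR adjusted p = 0.157). The COL17A1 value rested largely on knockdown replicate 2, being called without knockdown replicate 1 (log2 fold change -1.48, edgeR adjusted p = 0.0111) and at -0.35 without knockdown replicate 2.

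The multiplexins carry heparan or chondroitin sulphate chains and lie at basement membranes. COL18A1, whose C-terminal fragment is endostatin, had 2053 and 2167 counts in the knockdown libraries and 1939 and 2416 in the controls, with overlapping groups (log2 fold change -0.07, SE 0.115, edgeR adjusted p = 0.722). It shares 18.4% of its exon bases with SLC19A1 on the opposite strand, and the sources used here do not say whether counting used strand, so its counts are uncertain. COL15A1 had 12 and 14 counts after knockdown and 15 and 23 in the controls (log2 fold change -0.55, edgeR adjusted p = 0.369). The unclassified COL26A1 and COL28A1 had between 15 and 81 counts in each library and were not called (log2 fold changes 0.02 and -0.12, adjusted p = 0.974 and 0.867 in edgeR).

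The 15 members that were not tested had at most 17 counts in any library. Besides COL1A2, COL5A1, COL6A5, COL6A6 and the short-chain genes, they were COL3A1, the fibrillar partner of type I in stroma, COL11A1, COL9A1, COL19A1, COL21A1, COL22A1, COL23A1 and COL25A1. COL3A1 had 13 and 8 counts in the knockdown libraries and 3 and 9 in the controls, and COL25A1 had 3 and 4 after knockdown and 11 and 7 in the controls.

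On the per-length scale COL6A1 and COL6A2 stood above all other members, followed by COL18A1, COL9A3, COL12A1 and COL1A1, whose ranges over the 4 libraries overlapped from each to the next. COL6A1 and COL6A2 also had high occupancy, at 36.4% and 40.4%; occupancy is the mean count as a share of 2 counts per base of the canonical transcript. Over all genes and libraries 377 values lay above 0.98 of that limit, and fold changes at high occupancy may be compressed. The 11 called members had occupancies of at most 10.1%, and all 11 kept their call with counts corrected for the levelling off.

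**Figure D5:**
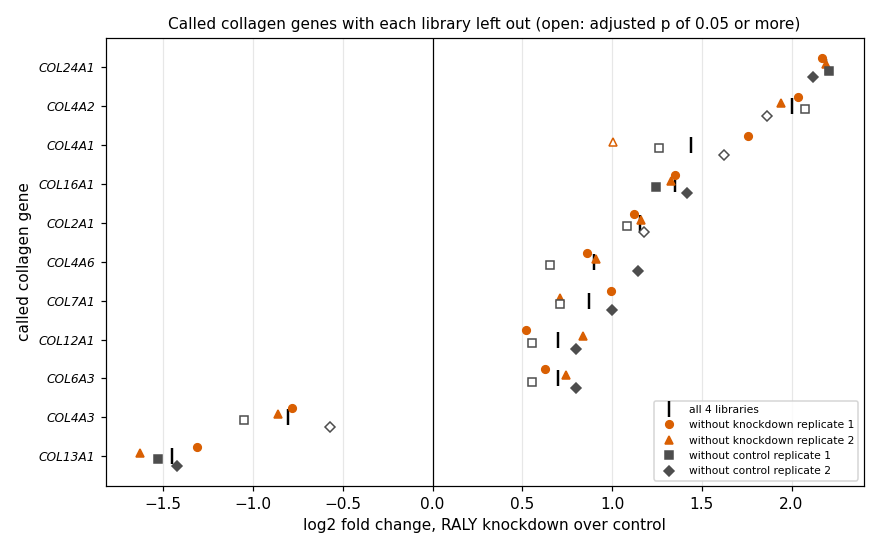
Log2 fold change (RALY knockdown over control) of the 11 called collagen genes with all 4 libraries (black ticks) and with each library left out; open symbols have an edgeR adjusted p of 0.05 or more. COL24A1, COL16A1 and COL13A1 keep filled symbols throughout, most open symbols are those without a control, and every symbol stays on the side of 0 of its tick.

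Genes that make, export, cut, crosslink, bind or degrade collagen moved in both directions. Over 7 lists with 79 genes, 65 were tested, of which 10 rose and 9 fell, or 15.4% and 13.8%, beside 12.5% and 13.1% of all tested genes, with a median log2 fold change of 0.01. In chain modification and folding, 2 of 17 tested genes rose and 2 fell (median -0.02). P4HA2, a prolyl hydroxylase subunit, and PLOD2, a lysyl hydroxylase, rose, with log2 fold changes of 0.40 and 0.38 (adjusted p = 0.0247 and 0.0437 in edgeR). FKBP14, a prolyl isomerase of the endoplasmic reticulum, and PLOD3, another lysyl hydroxylase, fell by 0.51 and 0.34 (edgeR adjusted p = 0.0133 and 0.0346). SERPINH1, the collagen chaperone, had a log2 fold change of -0.02 and was not called. Its occupancy was 48.3%, so a change may be compressed.

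In procollagen export 1 of 10 tested genes was called, where 12.5% of all tested genes rose and 13.1% fell. PREB, the exchange factor that starts coat assembly at exit sites, fell (log2 fold change -0.49, adjusted p = 0.00798 in edgeR). Among 9 tested genes of procollagen processing, PCOLCE, an enhancer of C-propeptide cleavage, rose by 0.59 (edgeR adjusted p = 0.0326) and FURIN, a proprotein convertase, fell by 0.60 (edgeR adjusted p = 0.00275). PCOLCE shares 16.8% of its exon bases with an antisense gene, and its counts are uncertain. Of 5 tested crosslinking genes, LOXL3 rose 2.80-fold, with 767 and 580 counts in the knockdown libraries and 193 and 282 in the controls (log2 fold change 1.49, SE 0.166, edgeR adjusted p = 0.000111). LOXL3 shares 18.6% of its exon bases with HTRA2 and DOK1 on the opposite strand, so its counts are uncertain too. LOXL1, also a lysyl oxidase, fell (log2 fold change -0.77, adjusted p = 0.0188 in edgeR).

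Of 10 tested collagen receptors, 3 rose and 2 fell (median 0.20), beside 12.5% and 13.1% of all tested genes. DDR2, a receptor tyrosine kinase for fibrillar collagen, had 278 and 280 counts in the knockdown libraries and 49 and 82 counts in the controls, a 4.24-fold rise (log2 fold change 2.09, SE 0.231, edgeR adjusted p = 0.000103). Its relative DDR1 had a log2 fold change of 0.01 and was not called. ADGRG1, an adhesion receptor for type III collagen, and ITGA2, a collagen-binding integrin subunit, rose by 0.61 and 0.44, while their fellow receptors ITGB1, the common integrin beta subunit, and MRC2, which takes up collagen, both fell by 0.55 on the log2 scale (in edgeR, adjusted p = 0.00459, 0.0282, 0.00822 and 0.0200).

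Partners of fibrils and basement membranes gave 3 higher of 6 tested (median 0.25), a share that rests on few genes. Over all tested genes 12.5% rose and 13.1% fell. FN1, which encodes fibronectin, rose 1.88-fold, AGRN, a basement membrane proteoglycan, 1.5-fold, and SPARC, a collagen-binding matricellular protein, 1.40-fold (edgeR adjusted p = 0.000326, 0.00492 and 0.0188). The type IV partner HSPG2 had a log2 fold change of 0.02. In collagen degradation 2 of 8 tested genes fell and none was called higher (median -0.08). The 8 include TIMP1 and TIMP2, inhibitors of metalloproteinases, which were not called (log2 fold changes -0.07 and -0.10). The count and median thus mix enzymes with inhibitors. CTSK, a collagen-cleaving cathepsin, fell by 1.23 and MMP14, a membrane collagenase, by 0.41 on the log2 scale (adjusted p = 0.00255 and 0.0298 in edgeR).

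Leaving out either control ended the call of most of the 19 called genes in these lists, and calls over all genes became far fewer as well. LOXL3, DDR2 and FN1 kept theirs with either control left out, FURIN without control replicate 1, and ADGRG1, ITGB1 and AGRN without control replicate 2. P4HA2, PLOD2, PCOLCE and SPARC also lost theirs without knockdown replicate 2, and PLOD2, PCOLCE and ITGA2 with plain totals. Each value kept its direction in these settings.

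Markers of other cells were low beside the epithelial ones. In mean RPKM over the 4 libraries, PDGFRB (2.53) lay above the called COL24A1, COL2A1, COL4A1, COL4A2 and COL4A3. It lay below the other called collagen genes. In bulk RNA, more or fewer cells of a type and more or less RNA per cell cannot be told apart. Of 7 fibroblast markers 1 was tested, PDGFRB, at 20.9 CPM after knockdown and 15.2 CPM in the controls (log2 fold change 0.46, edgeR adjusted p = 0.0797). DCN, LUM, PDGFRA, THY1, FAP and POSTN had at most 8 counts in any library, with POSTN at 0 in both controls. The summed fibroblast markers were 22.0 and 21.9 CPM in the knockdown libraries and 15.8 and 16.1 CPM in the controls. Of 5 endothelial markers 3 were tested and none was called, with sums of 10.5 and 8.54 CPM after knockdown and 10.5 and 10.6 CPM in the controls. Of 5 leukocyte markers 3 were tested and ITGAM rose, with sums of 11.3 and 11.4 CPM after knockdown and 5.23 and 5.84 CPM in the controls, while PTPRC had at most 9 counts. Of 8 colorectal epithelial markers 7 were tested and CDX2 fell, with sums of 510 and 545 CPM after knockdown and 566 and 495 CPM in the controls. KRT8, the largest part of these sums, had an occupancy of 82.8%, so a change in it may be compressed. The part of these markers in the collagen values was not tested.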

How the data were processed

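Each library has a deposited table of raw counts per gene, beside exon positions and merged exon length, per the file headers. HISAT2 2.0.4, featureCounts, Subread and SAMtools are listed in the submitters' processing notes, with GRCh38 as the build. The sources used here do not give their settings, the use of strand or any removal of duplicate reads. Of the 58884 gene IDs, 58472 were matched to GENCODE release 44, which gave symbols, biotypes and canonical transcripts.

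Counts were fitted with edgeR 4.0.16 (R 4.3.3): filterByExpr, which here kept genes at 0.64 CPM or more in at least 2 libraries, TMM factors, robust quasi-likelihood dispersions, group as the single term, and Benjamini-Hochberg adjustment over all genes tested. On simulated counts with 200 changed genes among 19238, the fit recovered 68% of 2-fold and 35% of 1.5-fold changes. It also called 6 unchanged genes. In the real counts 25.6% of the tested genes were called, a far larger share, so these rates need not hold there. Groups and replicate numbers came from sample titles. DESeq2 1.42.0, other scalings and filters, a replicate block, leaving out each library and counts corrected for levelling off, -2L ln(1 - n/2L) with n the count and L the canonical length (n/2L held at or under 0.98), were the alternatives. The members, the gene lists and the tests were chosen with earlier results of these data known. Every tested member was named. From each pathway list, the called genes of lowest p were named, at most 4 in the commoner direction and 2 in the other. A few other genes of the lists were named after their values were seen (SERPINH1, DDR1, HSPG2, TIMP1 and TIMP2). Start-site sequences are RefSeq's (GRCh38.p14), and exon sequences are from GENCODE transcripts. Library depth sets the floor: 3 counts correspond to 0.174 to 0.227 TMM-scaled CPM, counting error only. Levels are compared between genes in RPKM, from the merged exon length.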

Additional observations from a re-analysis of the deposited data

How the results depend on the processing

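Among the 11 called collagen genes, none changed direction under any alternative run. All 11 kept their call with RLE size factors, a filter of 1 CPM in 2 libraries, no low-count filter, saturation-corrected counts, the replicate block and without knockdown replicate 1. DESeq2 kept 9, plain totals 10, and the fit without knockdown replicate 2 kept 10. Without control replicate 1 only COL24A1, COL16A1 and COL13A1 kept theirs, and without control replicate 2 COL4A3, COL2A1, COL4A1 and COL4A2 lost it. With each library left out, between 2 and 12 collagen genes were called higher and between 1 and 4 lower. Over all genes these ranges were 340 to 2908 higher and 508 to 3351 lower, and over pathway genes 3 to 13 higher and 1 to 11 lower. Leave-one-out fits take their spread from the pair that remains. Counts differed more between the knockdown libraries than between the controls (chi-square per degree of freedom 10.2 against 5.42). Fits without a control rest on that wider pair, so a call lost there does not single out the control left out. With no low-count filter 4 collagen genes were called lower, and with the replicate block 5. Replicate numbers come from the titles and mark no stated pairing. Deviations of same-numbered libraries correlated at 0.219 over genes, and the block called 10 collagen genes higher, and 3518 genes higher and 3536 lower in all. It added calls for COL1A1, COL5A2, COL9A3 and COL17A1 (edgeR adjusted p = 0.0133, 0.00458, 0.0298 and 0.0364). The network median ran from 0.22 to 0.63 with 1 library left out. It was -0.075 without COL4A1 and COL4A2, which passed the filter only through knockdown libraries, a setting chosen after seeing the data. The summed level of the other types, 1.18 times that of the controls, was 1.14 with saturation-corrected counts and 1.25 without COL6A1. The causes of these changes were not tested.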
